A study of Mus musculus with 12 samples.

Results

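Tmem92, Rfpl4b, Tcstv1, Kdm4dl, Gm8818 and AW822073 are 6 mouse genes that muscle scarcely transcribes and that carried reads in muscle in which the transcription factor Dux was switched on. They were chosen by name, as 6 of the 12752 genes in the count table, because their counts were high in induced Dux muscle and at or near 0 elsewhere, so every value that sets induced Dux muscle against the other groups is a description of the choice and carries no test. The tissue was the whole tibialis anterior, a leg muscle, of C57BL/6 male mice, and the 12 libraries form 4 groups of 3. All muscles received AAV:TET by intramuscular injection at 8 weeks of age. One limb was given the empty vector AAV:MCS (EV) and the contralateral limb AAV:Dux (DUX), and after 7 days on standard chow the animals stayed on it or changed to chow with 600 mg/kg doxycycline (EV_DOX, DUX_DOX). Doxycycline was fed for 2 or 7 days, and the labels do not say which holds for these libraries, which promoter drives Dux, or whether the 3 libraries of a group are separate animals. P-values therefore measure the spread between libraries, which may be technical. In whole muscle, fewer cells that transcribe a gene and less RNA per cell cannot be told apart.

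Dux is a double homeobox transcription factor that is made for a short time in the mouse 2-cell embryo, where it switches on a set of genes and repeats that most adult tissues keep silent. Its human counterpart DUX4 is misexpressed in muscle in facioscapulohumeral muscular dystrophy and activates a related set of genes. Many genes of this set belong to families with several near copies, some of them pseudogenes, so the sequences come before the counts here.

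The stretches below show why the reads of these genes need care, each beside the most informative copy of the gene, with the bases that differ in capitals and the coding strand read 5′ to 3′ from GENCODE release M21 on GRCm38. Each stretch was taken where the copies differ about as often as they do over their whole alignment. Kdm4dl (chr9:14451909-14451968, minus strand) is shown with Kdm4d (chr9:14464423-14464482, minus strand), which lies in the same region of chromosome 9.
Kdm4dl: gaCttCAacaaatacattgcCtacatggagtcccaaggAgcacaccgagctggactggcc
Kdm4d: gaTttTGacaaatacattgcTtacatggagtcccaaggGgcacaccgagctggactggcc

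These stretches differ at 5 of 60 bases, and the genes were 90.9% identical over 979 aligned bases. Kdm4d itself is not analysed here. Gm9361, a processed pseudogene on chromosome 3 that is not shown, was also 90.9% identical, over all 1187 bases of Kdm4dl. Gm8818 (chr1:153305463-153305522, plus strand) is shown with 4930453N24Rik on chromosome 16 (chr16:64770773-64770832, minus strand), a protein-coding gene of which it is a copy without introns.
Gm8818: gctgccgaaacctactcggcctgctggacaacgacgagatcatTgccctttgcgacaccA
4930453N24Rik: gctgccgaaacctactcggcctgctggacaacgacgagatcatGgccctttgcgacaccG

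Here only 2 of 60 bases differ, and the identity was 96.8% over all 1047 bases of Gm8818. Gm12026, a processed pseudogene on chromosome 11 that is not shown, was 93.7% identical over the same length. Tcstv1 (chr13:119893965-119894024, minus strand) is shown with its neighbour Gm21761 (chr13:119912623-119912682, minus strand).
Tcstv1: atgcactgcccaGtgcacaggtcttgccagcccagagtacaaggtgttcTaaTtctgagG
Gm21761: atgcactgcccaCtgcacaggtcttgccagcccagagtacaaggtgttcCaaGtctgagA

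This pair differs at 4 of 60 bases and was 93.6% identical over 824 aligned bases. Tmem92 (chr11:94778686-94778745, minus strand) is shown with Gm11543 (chr11:94828304-94828363, minus strand), a pseudogene upstream of it.
Tmem92: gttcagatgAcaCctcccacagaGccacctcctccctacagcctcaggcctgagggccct
Gm11543: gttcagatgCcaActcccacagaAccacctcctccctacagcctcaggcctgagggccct

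Only 179 of the 2043 bases of the Tmem92 transcript aligned with Gm11543, and the stretch shown holds 3 differences. Uniqueness was then measured as the share of all windows of a transcript that occur in no other annotated gene. At 50 bases, every window of Rfpl4b (100%) and 98.0% of those of Tmem92 were unique. The share was 77.1% for Gm8818, 74.7% for Tcstv1, 69.6% for Kdm4dl and 42.8% for AW822073. At 100 bases it was 100% for Tmem92, Rfpl4b and Gm8818, 93.6% for Tcstv1, 90.9% for Kdm4dl and 70.3% for AW822073. Neither the read length behind the counts nor the treatment of reads with several matches is stated in the sources. The counts of AW822073, Kdm4dl and Tcstv1, and of Gm8818 if the reads were short, are therefore uncertain in their assignment. Rfpl4b and Tmem92 could hardly borrow reads from another annotated gene.

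Library totals ran from 11880593 to 13811999 counts. Levels are given as CPM, counts scaled to library size with TMM factors, with the mean and SD over 3 libraries, and ratios of summed counts carry 95% intervals that cover counting error only. Where a group had 0 counts, the ratio is a lower bound against a floor of 3 counts over that group. The lowest of the 3 DUX_DOX libraries stood above the highest of the other 9 in all 6 genes, which is what they were chosen for. Of all 12751 genes tested, 25.3% were called in DUX_DOX against EV_DOX and 29.6% in DUX_DOX against DUX, and nothing is read from the 6 genes against these shares. The number called in DUX_DOX against EV_DOX was 3224, and 2109 without DUX_DOX 3. All 6 passed the filter on low counts, and they could do so only through DUX_DOX.

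Tmem92 encodes a transmembrane protein and is counted among the genes of the mouse 2-cell embryo. It lies on chromosome 11 from 94777217 to 94782703 on the minus strand, with 5 exons and 114 codons in the longest annotated transcript. Its counts were 1123, 2339 and 1370 in DUX_DOX 1, 2 and 3. They were 0, 0 and 2 in EV, 2, 0 and 0 in EV_DOX, and 2, 2 and 4 in DUX. Thus every DUX library held reads of the gene without the inducer, but far fewer than any DUX_DOX library. The mean in DUX_DOX was 119.6 CPM (SD 42.5), and the summed level was 589 times that in DUX (298.5 to 1364).

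Tmem92 did not stand alone in its stretch of chromosome 11. Upstream of it on the same strand lie several pseudogenes with a short piece of its sequence, and the 3 of them in the table were also nearly confined to DUX_DOX. Gm11543, whose start lies 46.2 kb from that of Tmem92, had 845, 1831 and 1359 counts in the DUX_DOX libraries and 10 in the other 9, of which 9 were in DUX. AA623943, at 30.6 kb, had 88, 183 and 110 counts in DUX_DOX and 1 elsewhere. Gm11546, at 15.1 kb, had 53, 136 and 52 counts and 1 elsewhere. All 3 were highest in DUX_DOX 2, as Tmem92 was. They also entered the table through DUX_DOX alone, so no test is given. Identity with Tmem92 was 84.0% over 181 bases for Gm11546 and 83.9% over 168 for AA623943. With 98.0% of its 50-base windows unique, Tmem92 shares little with these copies. The next genes of the table downstream, Xylt2 at 105.2 kb and Mrpl27 at 128.9 kb, were not called in DUX_DOX against EV_DOX by the edgeR quasi-likelihood test. Their log2 fold changes were 0.17 (SE 0.16, adjusted p = 0.494) for Xylt2 and -0.09 (SE 0.10, adjusted p = 0.524) for Mrpl27.

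**Figure D1:**
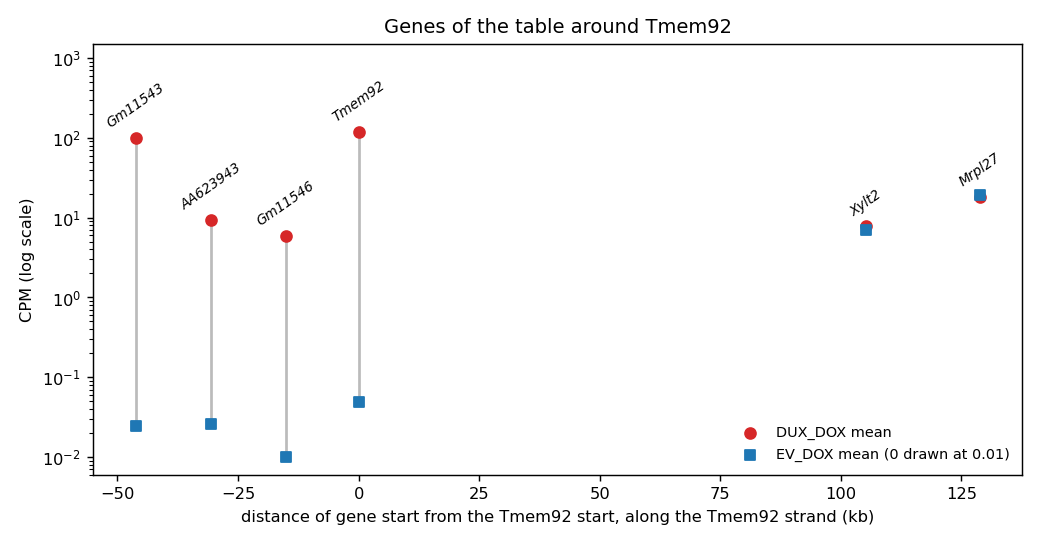
Mean CPM of the genes of the table around Tmem92 in DUX_DOX (circles) and EV_DOX (squares, 0 drawn at 0.01) on a log axis, against the distance in kb of each gene's start from that of Tmem92 along its strand, negative values being upstream. Tmem92 and the 3 pseudogenes within 50 kb upstream stand at 5.93 to 119.6 CPM in DUX_DOX and near 0 in EV_DOX, while the symbols of Xylt2 and Mrpl27 nearly coincide. Lrrc59, at 152.9 kb, and genes farther away are not drawn.

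Rfpl4b encodes a protein related to the ret finger proteins, and human RFPL4B is a known target of DUX4. The gene lies on chromosome 10 from 38820541 to 38821779 on the minus strand, with 3 exons and 266 codons. Its counts were 679, 1055 and 524 in the DUX_DOX libraries. Of the other 9 libraries only DUX 1 held any, with 2. The mean in DUX_DOX was 55.9 CPM (SD 17.8), the summed level was at least 740.3 times that in EV_DOX and at least 719 times that in EV, and the ratio to DUX was 1100 (304 to 9091).

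A promoter sequence was at hand for Rfpl4b alone among the 6 genes, in the RefSeq table on GRCm38.p6 (chr10:38821730-38822029, minus strand). It holds the 250 bases before and the 50 bases from the start site on, and is printed because Rfpl4b is the member whose reads are most surely its own. Capitals mark a TATA box.
Rfpl4b promoter: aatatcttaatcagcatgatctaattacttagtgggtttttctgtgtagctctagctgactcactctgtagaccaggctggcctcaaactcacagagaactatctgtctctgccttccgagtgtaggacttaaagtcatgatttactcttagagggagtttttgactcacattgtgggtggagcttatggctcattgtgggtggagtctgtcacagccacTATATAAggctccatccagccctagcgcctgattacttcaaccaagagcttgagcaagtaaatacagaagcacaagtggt

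The letters TATATAA were searched on both strands and occurred in 3.24% of 32851 promoters of this length. In Rfpl4b they lie on the strand of the gene, at -30 to -24 with the start site at 0, a usual place for a TATA box. The letters AATCA, part of the site known for human DUX4, occurred in 37.0% of promoters and at 3 places in that of Rfpl4b, of which 1 spans the start site on the opposite strand, from -1 to 3. These 2 words of letters do not overlap each other in Rfpl4b. Promoter entries existed for 16 symbols among the 34 gene identifiers with at least 95% of their summed CPM in DUX_DOX. Of these symbols, Zscan4d and Zscan4f each stand for a pair of identifiers. Among these, AATCA was found in 13 and TATATAA in 2, Rfpl4b and Gm21761. The 13 include near copies, 4 of them Zscan4 genes and 3 pseudogenes of Tmem92, so they are not independent. Such matches describe letters in a window and show no binding.

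A list of Rfpl and Trim relatives held 9 symbols, of which 3 besides Rfpl4b were in the table. Trim27, a ret finger protein, rose in DUX_DOX against EV_DOX from 16.1 to 21.8 CPM (log2 fold change 0.44, SE 0.13, adjusted p = 0.0207), a call that was lost without EV_DOX 1, EV_DOX 2, DUX_DOX 2 or DUX_DOX 3, with adjusted p from 0.0551 to 0.0802. Trim11, at 0.11 on the log2 scale (SE 0.13, adjusted p = 0.587), and Trim39, at -0.12 (SE 0.11, adjusted p = 0.463), were not called. The list median over these 3 was 0.11, beside -0.01 over all genes.

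Tcstv1 belongs to a family known from the 2-cell embryo and from the Zscan4-positive state of embryonic stem cells, where its products take part in telomere lengthening. It lies on chromosome 13 from 119893388 to 119894785 on the minus strand and encodes 171 codons. It had 54, 124 and 99 counts in DUX_DOX and 0 in each of the other 9 libraries, a mean of 6.88 CPM (SD 2.47) and at least 90.8 times the level in EV_DOX. The neighbouring copy Gm21761, whose start lies 34.5 kb away, had 27, 82 and 47 counts in DUX_DOX and 2 in the other 9 libraries, both in DUX. Both genes were lowest in DUX_DOX 1 and highest in DUX_DOX 2. Another 4 copies on chromosome 13, Gm21818, AF067061, Gm20767 and B020031M17Rik, were 95.7, 92.8, 91.4 and 87.3% identical to Tcstv1 and are not analysed here. Of the 4 symbols of the Tcstv list, Tcstv1 was the one in the table.

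Kdm4dl resembles the Kdm4 genes, which encode histone demethylases for lysines 9 and 36 of histone H3, and KDM4E of this family is a known target of human DUX4. It lies on chromosome 9 from 14450836 to 14452022 on the minus strand and is annotated as an unprocessed pseudogene, with a longest open reading frame of 60 codons. It had 25, 53 and 46 counts in DUX_DOX and 0 in each of the other 9 libraries. The mean in DUX_DOX was 3.08 CPM (SD 1.03), at least 40.7 times the level in EV_DOX. Per kb of exon this is 2.60 CPM, with the uncertain assignment of its reads named above. The value is near the 2.07 CPM per kb of the enzyme gene Kdm4c in the same libraries. It is below the 5.84 of Kdm4a and the 5.72 of Kdm4b. From EV_DOX to DUX_DOX, Kdm4a went from 32.5 to 33.8 CPM (log2 fold change 0.05, SE 0.08, adjusted p = 0.656), Kdm4b from 27.4 to 28.0 (0.03, SE 0.09, adjusted p = 0.835) and Kdm4c from 11.7 to 12.1 (0.05, SE 0.13, adjusted p = 0.809). None of the 3 was called, their median of 0.05 lay beside -0.01 for all genes, and their signs turned in some alternative analyses. They share 71.7 to 75.3% of aligned bases with Kdm4dl.

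**Figure D2:**
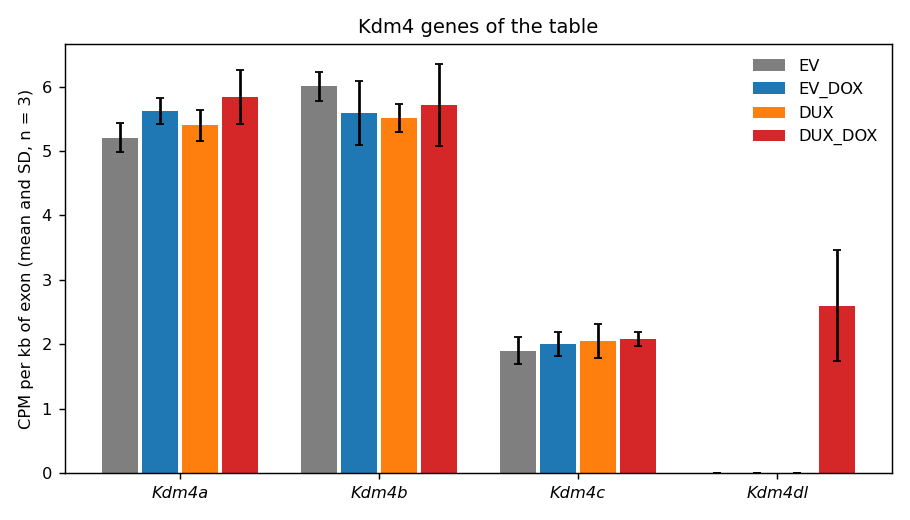
Mean CPM per kb of exon of the Kdm4 genes in the table, with bars for the 4 groups and SD over 3 libraries as error bars. Kdm4a, Kdm4b and Kdm4c stand at similar heights in all groups, while Kdm4dl appears in DUX_DOX alone, at 2.60 CPM per kb.

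Gm8818 lies on chromosome 1 from 153305432 to 153306478 on the plus strand and is annotated as a processed pseudogene, although an open reading frame of 348 codons runs through nearly all of its 1047 bases. It sits inside intron 1 of Lamc1 (153262695 to 153332127), a laminin chain gene on the opposite strand. Its counts were 1233, 1320 and 1072 in DUX_DOX. They were 0, 0 and 0 in EV, 5, 0 and 1 in EV_DOX, and 1, 4 and 2 in DUX. The groups on either side of induction did not overlap, and the 3 DUX_DOX libraries lay closer together than for any other of the 6 genes. The mean was 90.4 CPM (SD 6.53), and the ratio was 594 to EV_DOX (273 to 1620) and 505 to DUX (245 to 1256).

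Since Gm8818 differs from its parent gene at few bases, the values of the parent are given beside it. 4930453N24Rik had mean levels of 55.2 CPM in EV, 49.1 in EV_DOX, 50.4 in DUX and 48.2 in DUX_DOX. Its log2 fold change in DUX_DOX against EV_DOX was -0.03 (SE 0.11, adjusted p = 0.881), between -0.10 and 0.08 in the alternatives. Gm8818 went from 6 to 3625 counts between the same groups. How many reads of the parent were counted for Gm8818, or the reverse, was not tested. Lamc1, the host gene, had 153.9 CPM (SD 39.4) in EV_DOX and 189.3 (SD 15.4) in DUX_DOX, and its log2 fold change was 0.30 (SE 0.17, adjusted p = 0.206). Without EV_DOX 1 it was 0.49, with an adjusted p of 0.0350. The sources do not state whether the counting used strand, so reads from the Lamc1 intron and from Gm8818 cannot be told apart by strand. The EV libraries held 6245 counts of Lamc1 and 0 of Gm8818, and the part of intron reads in the DUX_DOX counts was not tested.

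AW822073 is a transcript of 1 exon beside the Dux locus on chromosome 10, from 58222972 to 58224930 on the minus strand, with 652 codons annotated. It was 98.1% identical to Duxf3 over its whole length of 1959 bases. The source of its reads, the injected vector or the endogenous locus, was not tested. It had 37, 60 and 46 counts in DUX_DOX. It had 0 in the EV libraries, 1 in EV_DOX 1, and 0, 1 and 2 in DUX. The mean in DUX_DOX was 3.56 CPM (SD 0.736), and 46.4 times the level in DUX (15.6 to 228).

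**Figure D3:**
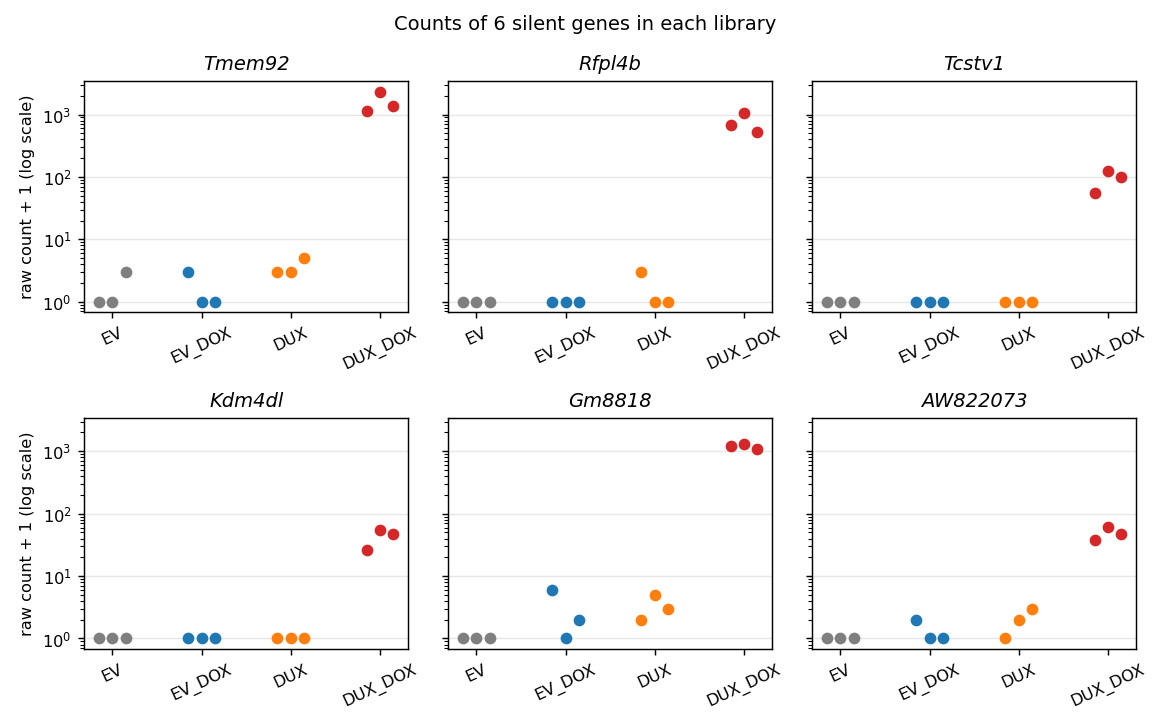
Raw count plus 1 on a log axis for each of the 6 genes in every library, in 4 groups of 3 points. In each panel the 3 DUX_DOX points lie above all other points, and Tcstv1 and Kdm4dl have 0 counts in all 9 other libraries.

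Compared per kb of exon, the counts of the 6 genes in DUX_DOX fell into a high and a low set. Gm8818 had 86.3 CPM per kb, above 97.5% of the genes with a known exon length. Tmem92 followed with 54.7, above 96.1%, and Rfpl4b with 53.0, above 96.0%. These 3 genes thus stood among the highest of the table. Tcstv1 had 4.92 CPM per kb, above 62.6% of genes, Kdm4dl 2.60, above 45.3%, and AW822073 1.82, above 35.6%. The low set was also the 3 genes with the smallest share of unique 50-base windows (74.7, 69.6 and 42.8%). Reads with several matches may have been left out of their counts, and the part of this in their lower levels was not tested. The levels of Tmem92 and Rfpl4b differed by less than the spread between their libraries.

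In Tmem92, Rfpl4b, Tcstv1 and Kdm4dl the DUX_DOX libraries differed from each other more than in most genes of similar level. The coefficient of variation was 35.6% for Tmem92, 31.9% for Rfpl4b, 35.9% for Tcstv1 and 33.3% for Kdm4dl. Genes within 2-fold of the same level had medians of 7.74, 7.79, 12.0 and 16.3% respectively, and counting alone would give 2.49, 3.65, 10.4 and 15.6%. AW822073 had 20.7%, beside a median of 15.5% and a counting error of 14.5%. Gm8818 lay near its median, with 7.23% beside 7.70%. A wide spread was not particular to these genes. Among others nearly confined to DUX_DOX, Gm11543 had a mean of 100.1 CPM (SD 33.6) and Zscan4e 12.8 (SD 4.01). The spread was narrow in Usp17lb, at 5.71 CPM (SD 0.345). All 6 genes were highest in DUX_DOX 2. Tmem92, Tcstv1, Kdm4dl and AW822073 were lowest in DUX_DOX 1, and Rfpl4b and Gm8818 in DUX_DOX 3. Tcstv1 was 2.16 times as high in its highest library as in its lowest and Tmem92 1.96 times. The lead of DUX_DOX 2 was shared by 26 of the 34 genes with at least 95% of their CPM in DUX_DOX, while 34.8% of all genes were highest in that library. Genes of 1 library share its RNA and are not independent, so this is given as a description.

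**Figure D4:**
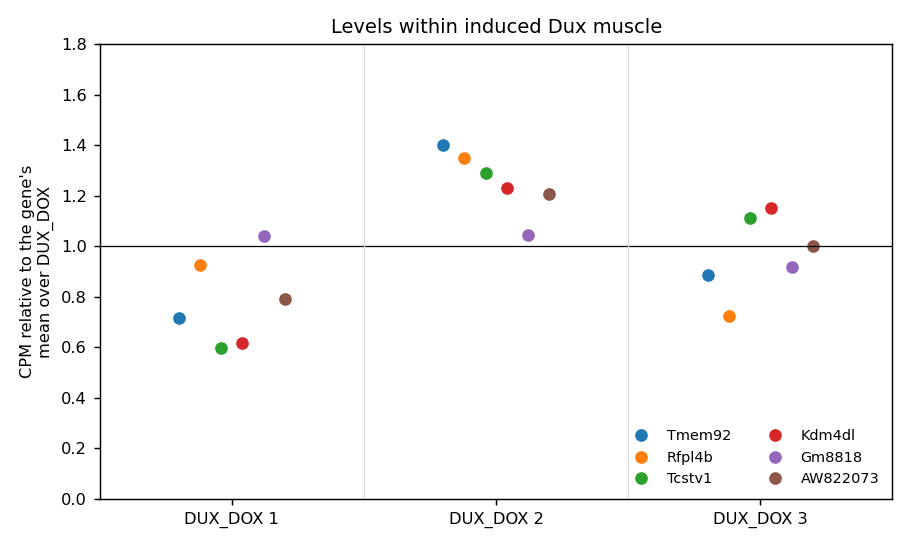
CPM of each of the 6 genes in DUX_DOX 1, 2 and 3 relative to its own mean over these libraries, with a line at 1. All points of DUX_DOX 2 lie above the line, and the points of Gm8818 stay closest to it.

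Counts outside DUX_DOX are described without a test, since low counts there were part of the choice of the 6 genes. Over the 6 genes together the EV libraries held 0, 0 and 2 counts, the EV_DOX libraries 8, 0 and 1, and the DUX libraries 5, 7 and 8. Every DUX library thus lay above every EV library, while EV_DOX 1 reached the level of DUX 3. The summed level was 0.511 CPM (SD 0.104) in DUX and 0.0511 (SD 0.0886) in EV. The level in DUX was 9.81 times that in EV, with a counting interval of 2.38 to 86.5, and rested on 2 counts in EV. It was 2.24 times that in EV_DOX (0.976 to 5.59), and the level in EV_DOX was 4.37 times that in EV (0.905 to 41.6). These intervals leave out the spread between libraries. EV_DOX had 0.221 CPM (SD 0.317). In percent of the DUX_DOX level, the 6 genes stood at 0.182% in DUX (0.111 to 0.282), 0.0813% in EV_DOX (0.0372 to 0.154) and 0.0186% in EV (0.00225 to 0.0672). Of the 9 counts in EV_DOX, 8 came from EV_DOX 1, and without that library the level was 0.0139%.

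By gene, Gm8818 had 7 counts in DUX and 0 in EV, Tmem92 8 and 2, AW822073 3 and 0, and Rfpl4b 2 and 0. Tcstv1 and Kdm4dl had 0 counts in EV, EV_DOX and DUX, where a difference was not detectable at this depth. Among all 12751 genes tested, edgeR called 0.0392% in EV_DOX against EV and 0% in DUX against EV. In the latter 2012 genes had an unadjusted p under 0.05, limma-voom called 0 genes and DESeq2 153, and without EV 2 edgeR called 118. Nothing is read from the 6 genes against these shares.

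Genes near the 6 loci were examined next, to describe how far the transcription reached along the chromosomes. Within 250 kb of the 6 genes, 92 annotated genes were examined, of which 29 were in the table. The 4 with at most 30 counts outside DUX_DOX were the 3 Tmem92 pseudogenes and Gm21761, described above. Of the 25 examined neighbours expressed outside DUX_DOX, 3 were higher and 4 lower in DUX_DOX against EV_DOX, and 18 were not called, beside 14.9% higher and 10.3% lower among all genes.

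Lrrc59, which encodes a ribosome-binding protein of the endoplasmic reticulum, rose from 41.5 to 78.1 CPM (log2 fold change 0.91, SE 0.08, adjusted p = 9.67e-07) at 152.9 kb from Tmem92. This call held in all 19 alternatives. The other calls were smaller and less stable. Npl, an enzyme of sialic acid breakdown, rose by 0.80 (SE 0.26, adjusted p = 0.0363) and lost its call in 7 of 19 alternatives, among them those without EV_DOX 1, EV_DOX 2, DUX_DOX 2 or DUX_DOX 3 (adjusted p = 0.0722 to 0.143). Ppp1r9b rose by 0.33 (SE 0.10, adjusted p = 0.0294) and lost it in 6, among them those without EV_DOX 2, EV_DOX 3, DUX_DOX 1 or DUX_DOX 3 (0.0629 to 0.128). Rsad1 fell by 0.40 (SE 0.12, adjusted p = 0.0220) and lost it in 4, among them those without EV_DOX 1, EV_DOX 3 or DUX_DOX 3 (0.0666 to 0.0905). Sgca, which encodes alpha-sarcoglycan of the muscle membrane, fell by 0.28 (SE 0.09, adjusted p = 0.0441) and lost it in 11, namely with the replicate number as a block (adjusted p = 0.0647), with only the groups compared in the fit (0.0922) and without any library other than EV 2, EV_DOX 1 and DUX_DOX 1 (0.0518 to 0.138). Near AW822073, Gcc2 fell by 0.26 (SE 0.09, adjusted p = 0.0416) and lost its call in 9, among them those without EV 1, EV_DOX 2, EV_DOX 3, DUX_DOX 3 or any DUX library (0.0511 to 0.165). Ranbp2 fell by 0.33 (SE 0.11, adjusted p = 0.0412) and lost it in 8, among them those without EV_DOX 1, EV_DOX 3, DUX_DOX 1, DUX_DOX 3 or any DUX library (0.0519 to 0.169). Lama4, the single expressed neighbour of Rfpl4b, stood at -0.01 on the log2 scale (SE 0.16, adjusted p = 0.960). None of the 4 neighbours of Kdm4dl in the table was called.

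**Figure D5:**
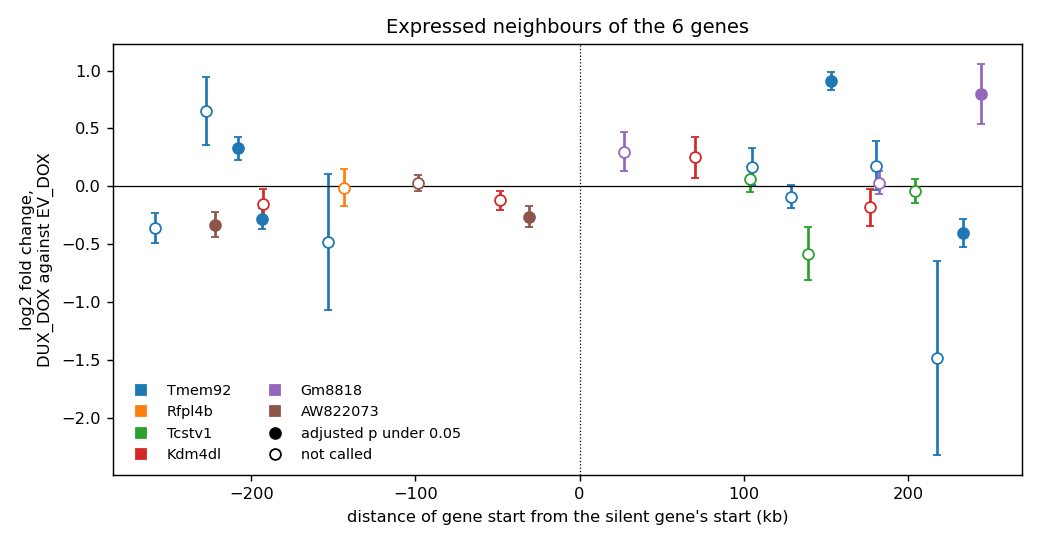
Log2 fold change in DUX_DOX against EV_DOX, with SE, of the 25 examined expressed neighbours against the distance in kb of their start from that of the silent gene, coloured by the gene they neighbour. Filled points had an adjusted p under 0.05, and most points lie near 0 at all distances. The highest is Lrrc59 at 0.91, and the lowest is Chad near Tmem92 at -1.48 (SE 0.84), which was not called.

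The genes most like these 6 were found by the share of the summed CPM over 12 libraries that lay in DUX_DOX, by which 34 genes had at least 95%. Tcstv1 and Kdm4dl, with all of their counts in DUX_DOX, ranked 8 and 11, Rfpl4b 12, Tmem92 21, Gm8818 23 and AW822073 32. Of the 10 most like genes outside the 6, 9 also had all of their counts in DUX_DOX. These were Zscan4d, Zscan4f with a pair of gene identifiers, Zscan4e, Zscan4b, Gm6189, Gm12794, Samd7 and Gm5698, and the other was Zscan4a with 99.9%. Another identifier of Zscan4d, not among the 10, had 99.8% and 1 count outside DUX_DOX. Samd7 is known from photoreceptors, and Zscan4 genes encode zinc finger proteins of the 2-cell embryo. The identifier of Zscan4a named here is annotated as an unprocessed pseudogene. Single values of Zscan4 genes are uncertain because they are near copies. Samd7 had 91, 84 and 44 counts in the DUX_DOX libraries. The Zscan4d identifier among the 10 had 168, 303 and 293, so that the highest library was not the same.

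The list of genes of the 2-cell embryo and of Dux targets held 53 symbols, of which 22 were in the table. Besides the 6 genes, 18 gene identifiers were tested in DUX_DOX against EV_DOX, with a median log2 fold change of 9.86. Of these, 14 were higher and 2 lower, beside 14.9% higher and 10.3% lower among all genes. Most of the 18 entered the table through DUX_DOX alone, so the count is a description and nothing is read from it against these shares. Those also expressed in the other groups went in both directions, and some of them were not called. A second list held genes known to silence the Dux or DUX4 locus or genes of the 2-cell embryo. Of its 26 symbols 25 were in the table, and 7 were higher and 1 lower, beside 14.9% higher and 10.3% lower among all genes. The list median was 0.04 beside -0.01 over all genes, so the median lay near the background. Calls of higher genes were more frequent than among all genes and calls of lower genes less frequent. The list was not tested as a set. Uhrf1, which recruits the maintenance DNA methyltransferase, rose from 0.681 to 7.78 CPM (log2 fold change 3.49, SE 0.35, adjusted p = 6.05e-06). Kdm1a, a lysine demethylase, rose from 25.4 to 36.6 CPM (0.53, SE 0.07, adjusted p = 0.000154), and Trim28, the corepressor of zinc finger repressors, from 41.0 to 53.4 (0.38, SE 0.08, adjusted p = 0.00319). The other 4 that rose were Daxx, Hdac1, Rnf2 and Dnmt1, by 0.36 to 0.49, and the 1 that fell was Dnmt3a, a de novo DNA methyltransferase, by 0.48 (SE 0.13, adjusted p = 0.0172).

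The tissue label was checked against markers, whose counts of calls in DUX_DOX against EV_DOX stand beside 14.9% higher and 10.3% lower among all genes. All 8 muscle fibre markers were present, with a summed level of 157100 to 170900 CPM in EV_DOX and 129600 to 146600 in DUX_DOX, and 2 of 8 were lower. Of 12 macrophage and monocyte markers 10 were higher, with a summed level of 265.3 to 388.9 CPM in DUX_DOX and 102.3 to 158.1 in EV_DOX. Of 5 satellite cell markers 1 was higher and 1 lower, of 4 endothelial markers 0 and 1, and of 4 fibro-adipogenic markers 1 and 0. None of the markers was at 0 in any group. The part of these marker differences in the levels of the 6 genes was not tested.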

How the data were processed

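The values are raw counts of reads per gene as deposited by the authors, made from poly-A selected RNA with TruSeq reagents, per the labels' protocols. The submitters' processing notes name bcl2fastq 2.17.1.14, STAR, featureCounts and the build GRCm38, while no source states the versions of STAR and featureCounts, the annotation or the strand setting. The table holds 12752 genes, the lowest mean count being 10.0, and totals of 11880593 to 13811999 counts per library, so a gene with 0 counts in a library may lie anywhere below about 3 counts. No pair of libraries of a group agreed within sampling noise (chi-square per degree of freedom 4.82 to 25.5).

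Genes were tested two-sided with glmQLFTest of edgeR 4.0.16 (R 4.3.3), TMM factors (0.916 to 1.12) and the default filter on low counts, in 1 fit of all 12 libraries, with Benjamini-Hochberg adjustment over 12751 genes and a threshold of 0.05. Log2 fold changes come from that fit. Standard errors were derived from it as the absolute log2 fold change divided by the square root of the F statistic. Ratios of counts carry exact conditional binomial intervals (scipy 1.17.1). Exon lengths, positions and transcripts came from GENCODE M21, identities from blastn 2.17.0, and the promoter from RefSeq. DESeq2 1.42.0, limma 3.58.1, other scalings, no filter, a replicate block and leaving out each library were alternatives. The edgeR fit was tested on simulated counts with changes placed in genes of higher mean count. That simulation did not cover genes near 0 in all groups but 1, as the 6 genes are. The 6 genes, the lists and the tests were chosen with earlier results of these data known. Besides the 6 genes, the named genes were the 10 most like in pattern and the Kdm4, Rfpl-Trim and Tcstv lists in full. Of the silencing list and of the pluripotency and germ cell list, the 3 with the smallest p were named. The other called genes of the silencing list were named as well, because they were called. Genes of the 2-cell list were not named by p. Near copies, called neighbours and the genes around Tmem92 were named after their values were seen. Of the annotated neighbours, 1 is not reported here.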

Additional observations from a re-analysis of the deposited data

Results flagged for a closer look

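Kdm1a, the lysine demethylase in the list of silencing factors, was picked out because the libraries of the Dux and empty vectors did not overlap on either chow, in opposite directions. The share of all genes that separate in this way was not computed, so nothing is read from the separation itself. On doxycycline chow all DUX_DOX libraries lay above all EV_DOX libraries, from 25.4 to 36.6 CPM, a rise of 0.53 on the log2 scale (SE 0.07, adjusted p = 0.000154 by edgeR). On standard chow all DUX libraries lay below all EV libraries, with means of 23.9 and 25.4 CPM, and Kdm1a was not called (log2 fold change -0.09, SE 0.08, adjusted p = 0.579 by edgeR). The difference between these effects was not tested.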

How the results depend on the processing

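The number of genes called in DUX_DOX against EV_DOX was 3224 and ran from 2109 (without DUX_DOX 3) to 3355 with single libraries left out. In DUX_DOX against DUX it was 3772 and ran from 2713 to 4158. In DUX against EV it was 0 by edgeR, with 2012 genes at an unadjusted p under 0.05, 0 by limma-voom, 0 to 118 with single libraries left out (118 without EV 2, 1 without DUX 2), and 153 by DESeq2. In EV_DOX against EV it was 5, 1 with upper-quartile factors, 12 by DESeq2, 0 by limma-voom, 0 with only the groups compared in the fit, 0 with the replicate block, and 0 to 10 with single libraries left out. Empty vector and Dux vector were given to opposite limbs, but the labels tie no replicate number to an animal. Correlations of same-numbered libraries ran from -0.112 to 0.094 between EV_DOX and DUX_DOX and from -0.105 to 0.176 between EV and DUX, which leaves a pairing by animal unsettled. The replicate block gave 3040, 3626, 0 and 0 calls in the 4 comparisons. The mean of Gm8818 in DUX_DOX was 90.4 CPM and 97.4 when scaled to library totals. The summed count of the 6 genes in EV_DOX was 9, and 1 without EV_DOX 1, an alternative chosen after seeing the data. The sign of Kdm4b turned with upper-quartile factors (-0.0015). With single libraries left out the log2 fold change ran from -0.07 to 0.10 for Kdm4b, from -0.03 to 0.09 for Kdm4c, from -0.01 to 0.10 for Kdm4a and from -0.10 to 0.08 for 4930453N24Rik. The cause was not tested. Of the other values of named genes under an alternative, 341 kept their direction and side of the threshold, 49 lost a call and 1 gained one. Counts of 0 limit Tcstv1, Kdm4dl and AW822073 most, since their DUX_DOX counts are lowest.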

Other observations

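The list of pluripotency and germ cell genes held 23 symbols, of which 5 were in the table, so most of these genes lay below the level at which genes entered it. In DUX_DOX against EV_DOX 3 of the 5 were higher and 1 lower by the edgeR test, beside 14.9% higher and 10.3% lower among all genes, with a median log2 fold change of 0.58 beside -0.01 over all genes. Klf4 rose from 15.9 to 30.3 CPM (log2 fold change 0.93, SE 0.13, adjusted p = 0.000146) and Klf2 from 15.3 to 24.1 (0.65, SE 0.13, adjusted p = 0.00187). Both are Krüppel-like transcription factors that adult tissues also express. Tfcp2l1, a transcription factor of naive pluripotency and of kidney ducts, fell by 1.22 on the log2 scale (SE 0.15, adjusted p = 5.87e-05), from 15.6 to 6.70 CPM.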
